A study of Mus musculus with 18 samples.

Results

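The nuclear genes for the subunits of oxidative phosphorylation (OXPHOS) were examined in RNA from sorted mouse cones, with and without forced expression of Txnip. Members were chosen by gene symbol among the genes of the annotation used for counting (Ensembl 94, GRCm38), with symbols taken from GENCODE M21. The choice took the Nduf subunits, Sdha to Sdhd, the Uqcr genes and Cyc1, the Cox4 to Cox8 genes and the Atp5 genes. Those marked as pseudogenes in the symbol were left out. This gave 91 of the 54532 genes listed: 41 for complex I, 4 for complex II, 9 for complex III, 19 for complex IV and 18 for complex V. By biotype 87 were protein coding, and the other 4 (Ndufa11b, Ndufb4c, Ndufs6b and Cox6c2) were processed pseudogenes whose symbols lack the pseudogene mark. No measured value entered this rule, though it was set with earlier results of these data known.

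The series held 18 libraries, each made from 1000 cones sorted from 1 wild-type (WT) retina. BALB/c retinas were taken at postnatal day 21, with 6 control and 6 Txnip libraries, and C57BL/6J retinas at postnatal day 35, with 3 control and 3 Txnip libraries. All retinas had received at birth an adeno-associated virus (AAV) that expresses H2BGFP, a green histone fusion used for sorting, from the cone promoter SynP136. Txnip retinas had in addition received an AAV that expresses Txnip, a member of the alpha-arrestin family, from the red opsin promoter. Per the study's methods the red opsin promoter is not fully restricted to cones, so some transgene expression in rods is possible. The C57BL/6J strain also carries a null allele of Nnt, the transhydrogenase of the inner mitochondrial membrane. Strain and age changed together, as did any difference in preparation or run, which the labels do not give. These cannot be told apart, so "strain difference" below stands for all of them. That each library is a separate retina comes from the study's methods. The labels do not say which retinas came from the same mouse, so p-values measure the spread between these samples.

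Oxidative phosphorylation makes ATP in the inner mitochondrial membrane. Complex I (NADH dehydrogenase) and complex II (succinate dehydrogenase) pass electrons to ubiquinone, complex III (the cytochrome bc1 complex) passes them on to cytochrome c, complex IV (cytochrome c oxidase) passes them to oxygen, and complex V (ATP synthase) uses the proton gradient that results. Complex II is encoded in the nucleus alone, while the other complexes also hold subunits made from the mitochondrial genome. Photoreceptors pack their inner segments with mitochondria and spend much of their ATP on ion pumping.

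Nuclear OXPHOS genes are known targets of the factors NRF1, GABPA (an ETS factor) and YY1, so the bases upstream of the RefSeq start sites (GRCm38.p6) were searched for their motifs, and 1 promoter with a match is shown for each complex. Of the 91 members, 67 had an entry, with 72 promoters in all. The 250 bases upstream were searched on both strands for GCGCANGCG (NRF1; CGCNTGCGC on the other strand), CCGGAAGT (ETS) and AAGATGGC (YY1), and no motif is contained in another. The sequences below run 5′ to 3′ on the gene's strand and end at the base before the start site. Capitals mark motif matches: NRF1 in Ndufa11, Sdhd, Cox6a1 and Atp5l, and ETS in Uqcr11. The windows are chr17:56717512-56717761 (plus strand) for Ndufa11, chr9:50603850-50604099 (minus strand) for Sdhd, chr10:80406822-80407071 (minus strand) for Uqcr11, chr5:115348959-115349208 (minus strand) for Cox6a1 and chr9:44920743-44920992 (minus strand) for Atp5l.
Ndufa11: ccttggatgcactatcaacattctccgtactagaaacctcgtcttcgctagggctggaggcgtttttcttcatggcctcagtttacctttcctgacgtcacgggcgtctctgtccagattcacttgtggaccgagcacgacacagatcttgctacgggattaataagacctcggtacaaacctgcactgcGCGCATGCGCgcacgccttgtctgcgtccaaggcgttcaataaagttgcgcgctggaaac
Sdhd: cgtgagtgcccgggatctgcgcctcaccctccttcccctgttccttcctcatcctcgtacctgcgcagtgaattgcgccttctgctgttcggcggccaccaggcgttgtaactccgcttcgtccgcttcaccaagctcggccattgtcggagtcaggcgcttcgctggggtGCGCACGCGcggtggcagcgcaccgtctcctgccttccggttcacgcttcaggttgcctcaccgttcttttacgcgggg
Uqcr11: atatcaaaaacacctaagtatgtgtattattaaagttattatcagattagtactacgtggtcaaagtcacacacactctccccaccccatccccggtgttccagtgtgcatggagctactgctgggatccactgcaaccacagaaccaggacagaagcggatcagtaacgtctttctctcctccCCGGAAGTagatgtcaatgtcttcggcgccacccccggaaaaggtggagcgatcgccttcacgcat
Cox6a1: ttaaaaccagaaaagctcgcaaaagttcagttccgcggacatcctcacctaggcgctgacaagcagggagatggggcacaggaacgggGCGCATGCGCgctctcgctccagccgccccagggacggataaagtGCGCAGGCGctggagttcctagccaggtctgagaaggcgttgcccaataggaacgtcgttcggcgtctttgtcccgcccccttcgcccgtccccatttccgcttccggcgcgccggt
Atp5l: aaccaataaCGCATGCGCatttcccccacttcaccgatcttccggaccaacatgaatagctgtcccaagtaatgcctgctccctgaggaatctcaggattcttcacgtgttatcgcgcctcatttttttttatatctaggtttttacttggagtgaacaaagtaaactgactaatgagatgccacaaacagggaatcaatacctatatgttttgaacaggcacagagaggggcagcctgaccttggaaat

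The NRF1 motif was found in 14 of the 67 members (20.9%) and in 5.86% of the 27025 genes in the promoter table. By complex it was in 6 of 33 members of complex I, 2 of 3 of complex II (Sdha and Sdhd), 0 of 5 of complex III, 1 of 13 of complex IV (Cox6a1) and 5 of 13 of complex V (Atp5c1, Atp5g2, Atp5h, Atp5k and Atp5l). The members of complex I were Ndufa5, Ndufa8, Ndufa11, Ndufb4, Ndufs5 and Ndufs6. The ETS motif was in 3 members (Uqcr11, Uqcrh and Atp5h; 4.5% against 3.23% of all genes) and the YY1 motif in 1 (Atp5j; 1.5% against 1.83%). Among the members without an entry were Ndufa2, Ndufa4l2, Ndufa11b, Ndufb4c, Ndufb9, Ndufs1, Ndufs6b, Sdhc, Cyc1, Uqcrb, Uqcrc2, Uqcrq, Cox4i1, Cox4i2, Cox6a2, Cox6c, Cox6c2, Cox8c, Atp5a1, Atp5f1, Atp5mpl, Atp5s and the second gene model of Atp5o. A match is a run of letters and was not tested as a binding site.

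Read pairs had been counted per gene, and the total per library ran from 647712 to 5172156. The shallowest library was in the BALB/c Txnip group, whose median was 2101656. Txnip itself was at 0 to 1.48 CPM (counts scaled to the library size after TMM normalization) in the 6 BALB/c control libraries and at 1027 to 1414 CPM in the 6 BALB/c Txnip libraries. In C57BL/6J it was at 0 to 0.36 CPM in the controls and at 821, 1865 and 1969 CPM in the 3 Txnip libraries, so each library matched its label. The cone marker Arr3 was at 2886 to 10870 CPM in the 18 libraries. A list of 12 cone markers took 3.63 to 9.60% of the counts of a library and 10 rod markers took 0.847 to 2.30%. The ribosomal RNA locus on chromosome 17 took 3.27 to 27.6% of counts, with the 3 highest shares in C57BL/6J control replicate 2 and C57BL/6J Txnip replicates 2 and 3. Ganglion cell markers took 0.0312 to 0.0967% of counts in BALB/c and 0.00186 to 0.0109% in C57BL/6J libraries. In bulk samples fewer cells of a type and less RNA per cell cannot be told apart.

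Most of the nuclear OXPHOS genes tested were abundant in cones. A level is given as CPM per kb of the gene's exonic length in the counting table, unless another length is named. Of the 91 members, 79 had at least 10 counts in every library. In the fit of all 4 groups 81 members passed the filter on low counts, and 67 of these stood in the top 10% of the 14751 genes tested by level per kb, and 47 by CPM without division by length. Together the members took 1.46% of counts in BALB/c controls (1.38 to 1.56%), 1.44% in BALB/c Txnip (1.37 to 1.55%), 1.6% in C57BL/6J controls (1.16 to 1.93%) and 1.53% in C57BL/6J Txnip libraries (1.03 to 2.19%).

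The typical level differed between complexes, and complex II was the lowest. The median level of the tested members of a complex (37, 4, 9, 13 and 18 for complexes I to V), averaged over the 18 libraries, was 122 ± 20.1 (SD) CPM per kb for complex III, 97.1 ± 12.9 for complex IV, 83.3 ± 11.2 for complex V, 73.5 ± 14.9 for complex I and 49.2 ± 6.7 for complex II. In 14 libraries the order was III, IV, V, I, II, and in the other 4 complexes I and V changed places. Complex III stood above complex IV, and complex II below complex I, in each of the 18 libraries. With the length of the principal transcript in place of the exonic length, the medians were 242 for complex IV, 191 for complex V, 177 for complex III, 112 for complex I and 74.5 for complex II. That order, with complex IV at the top, held in 15 libraries, and in the other 3 complexes III and V changed places. The place of complex II at the bottom was common to both lengths in all 18 libraries, while the place of complex III was not. The place of complex IV depended on the filter on low counts. Over all 91 members its median was 65.9 CPM per kb of exonic length, against 66.9 for complex I and 83.3 for complex V, and complex II was then the lowest in 17 of the 18 libraries. This alternative was chosen after seeing the data.

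**Figure D1:**
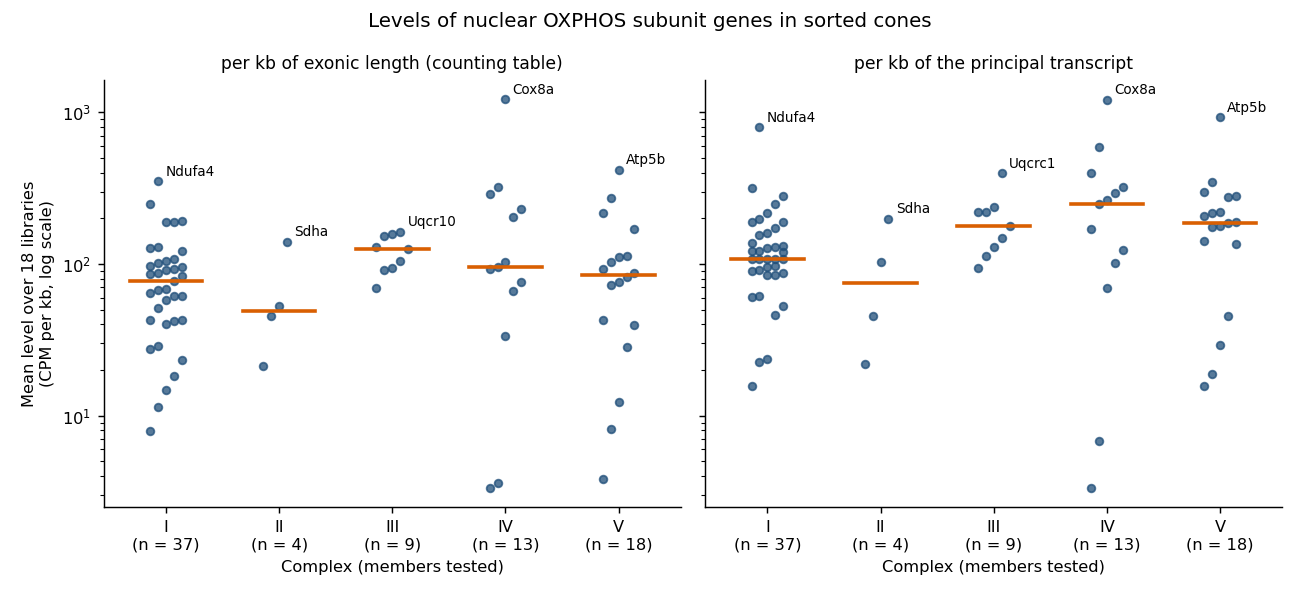
Mean level over the 18 libraries (CPM per kb, log scale) of each of the 81 members tested, by complex, with the exonic length of the counting table on the left and the length of the principal transcript on the right. Points are genes and bars are the medians over genes. Cox8a stood highest at 1217 CPM per kb of exonic length, and members of complexes I, IV and V ranged over more than a factor of 10.

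In complex I the most abundant member by its symbol was Ndufa4 at 351 CPM per kb, a protein now counted with cytochrome c oxidase, followed by Ndufa2, an accessory subunit, at 250. The lowest of the 37 members tested was Ndufab1, the mitochondrial acyl carrier protein, at 7.99. The core subunits that carry the flavin and iron-sulfur clusters were spread through this range: Ndufv1, which binds NADH, was at 130, Ndufs8 at 127, Ndufs7 at 91.1, Ndufv2 at 85.5, and Ndufs1 at 27.7 CPM per kb. The value of Ndufs1 depended on the length, since its exonic length of 8086 bases stands against 2661 for its principal transcript, by which it was at 84.3 CPM per kb.

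Complex II showed a gradient from the catalytic to the membrane part. Sdha, the flavoprotein that oxidizes succinate (chr13:74322254-74350280, minus strand), was at 140 CPM per kb and Sdhb, the iron-sulfur subunit, at 52.8. The membrane anchors Sdhd and Sdhc were at 45.5 and 21.3.

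The 9 members of complex III lay close together per kb of exonic length, from 69.6 for Uqcrc2 to 163 for Uqcr10. The range is wider by the principal transcript, since Uqcrc1 has 4135 exonic bases against 1653 in that transcript. Uqcrc1, a core protein, was at 158 CPM per kb, Uqcrfs1, the Rieske iron-sulfur protein, at 129, and Cyc1, cytochrome c1, at 125. All 9 passed the filter on low counts.

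Complex IV held both the most abundant member and most of those barely detected. Cox8a (chr19:7215158-7217616, minus strand), a small subunit of the membrane part, was at 1217 CPM per kb, rank 19 of the 14751 genes tested. Cox6a1 was at 321, Cox4i1 at 290, Cox6b1 at 231, Cox7a2 at 204, Cox7b at 102 and Cox7a2l, a supercomplex assembly factor named as a subunit, at 95.6. These are the isoforms found in most tissues. Their tissue-restricted partners were far lower: Cox6b2 was at 3.63, Cox6a2 at 3.35, Cox7a1 at 2.91, Cox4i2 at 1.72, Cox7b2 at 0.121 and Cox8b at 0.0329 CPM per kb. Cox8c had a count of 0 in all 18 libraries, which allows up to 0.58 CPM in the deepest and 4.63 CPM in the shallowest library (3 counts). Such floors cover counting error only.

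Complex V was led by the catalytic core. Atp5b, the beta subunit (chr10:128083273-128090391, plus strand), was at 418 CPM per kb, rank 62 of the genes tested, and Atp5a1, the alpha subunit, at 273. The 3 genes for the identical mature c subunit of the rotor differed in level, with Atp5g3 at 93.3, Atp5g1 at 28.2 and Atp5g2 at 8.18 CPM per kb. Per kb of exonic length the lowest member was Atp5l, subunit g of the membrane part, at 3.85. Its exonic length in the counting table is 6443 bases against 544 for its principal transcript. Per kb of the principal transcript Atp5g2 stood below it. Atp5o appears under 2 gene models, and over 50% of the exonic bases of the second are shared with another gene.

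Of the 91 members 10 could not be tested in the fit of all 4 groups: Ndufs6b, Ndufb4c, Ndufa11b, Ndufa4l2, Cox6c2, Cox7a1, Cox4i2, Cox7b2, Cox8b and Cox8c. Ndufa4l2, the hypoxia-inducible relative of Ndufa4, was at 0 in all 6 C57BL/6J libraries and at most 1.77 CPM in BALB/c. In a search of annotated transcripts, 16 members matched another gene at 98% identity or more over 100 bases or more, and for 7 the match covered at least 50% of the transcript (Ndufb4c, Ndufs3, Uqcrb, Cox7c, Atp5g2, Atp5h and Atp5l). The values of these 7 are uncertain, since pairs could align to either copy. Exonic bases were shared with another gene for 30 members.

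Summed over its members, each complex had a steady level in the 12 BALB/c libraries and a wider spread in the 6 C57BL/6J libraries. Complex I summed to 4560 ± 151 CPM (SD, n = 6) in BALB/c controls and 4504 ± 154 (n = 6) in BALB/c Txnip. In C57BL/6J it summed to 5112, 4664 and 6499 CPM in the controls and 7490, 3934 and 4941 CPM in the Txnip libraries. The highest C57BL/6J values, in control replicate 3 and Txnip replicate 1, were above all BALB/c libraries, and the lowest, in Txnip replicate 2, was below them. Complex II followed the same libraries, with 775 ± 37.8 and 764 ± 56.4 CPM in BALB/c control and Txnip, 875, 793 and 1087 in C57BL/6J controls, and 1261, 643 and 885 in C57BL/6J Txnip.

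The other complexes did likewise. Complex III was at 1782 ± 81 and 1725 ± 90.2 CPM in BALB/c control and Txnip and at 2009 ± 333 and 2070 ± 814 (SD, n = 3) in C57BL/6J. Complex IV was at 2471 ± 106, 2474 ± 130, 2589 ± 492 and 2636 ± 996, and complex V at 4682 ± 231, 4775 ± 192, 5220 ± 794 and 5326 ± 1498, in the same order of groups. In all 5 complexes C57BL/6J Txnip replicate 1 was the highest and C57BL/6J Txnip replicate 2 the lowest of the 6 C57BL/6J libraries. Cone markers moved with these sums: they took 9.60% of counts in C57BL/6J control replicate 3, 9.01% in Txnip replicate 1 and 3.63% in Txnip replicate 2. The ribosomal RNA locus took 6.44, 5.70 and 26.9% in the same 3 libraries. The part of either in the OXPHOS sums was not tested.

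**Figure D2:**
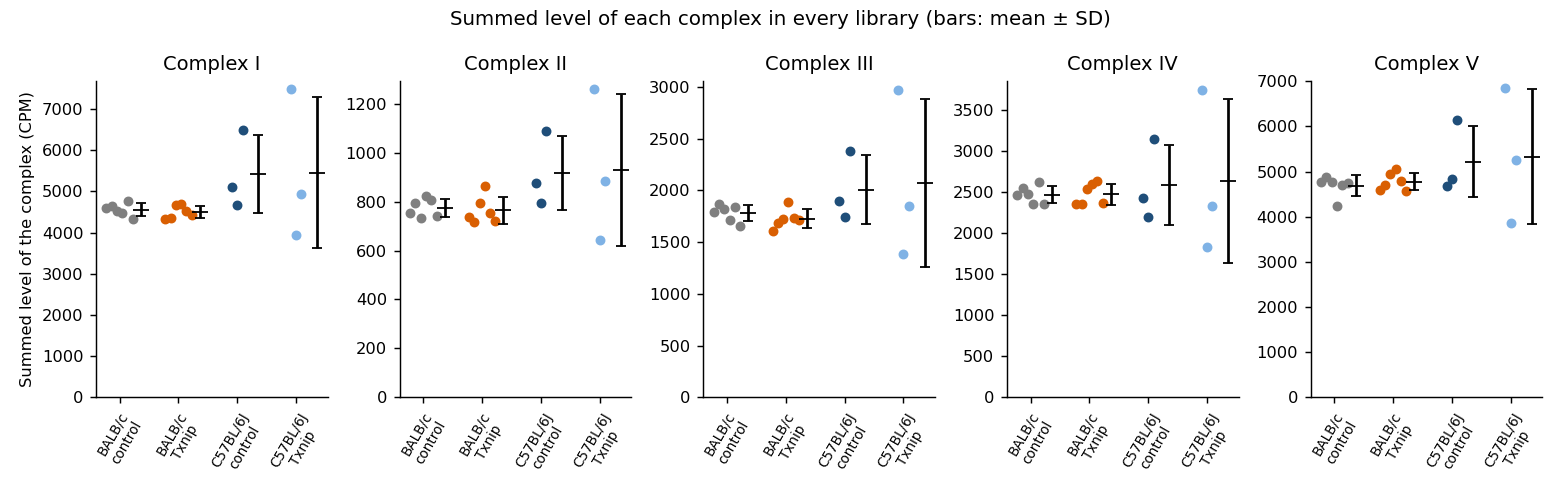
Summed level (CPM, linear axis from 0) of the members of each complex in every library, with the libraries of the 4 groups as points and the mean ± SD as bars (n = 6, 6, 3 and 3). For complex I the BALB/c groups lay at 4560 ± 151 and 4504 ± 154 CPM, while the C57BL/6J Txnip libraries ranged from 3934 to 7490.

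The first comparison asked whether Txnip altered the nuclear OXPHOS transcripts of healthy BALB/c cones. No member did so by the test. Of 79 members tested, 0 were called at an adjusted p under 0.05 (edgeR quasi-likelihood test with Benjamini-Hochberg adjustment), against 2 of 12017 genes overall (0.0166%), which were Txnip and its antisense neighbour Gm15441. The median log2 fold change over members was -0.01 (all genes 0.00), with 38 members above and 41 below 0. At an unadjusted p under 0.05 there were 2 members, against 1372 genes of 12017, and DESeq2 also called 0 members, with 77 of 11570 genes called. Without BALB/c Txnip replicate 1, edgeR called 258 of 12110 genes and 0 members.

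The members with the smallest p in BALB/c moved little. Ndufa6, an accessory subunit of complex I of the LYR family, had its lowest, median and highest level at 58.9, 67.6 and 74.5 CPM in controls and 73.3, 79.4 and 85.2 CPM in Txnip libraries, with an overlap of the groups at the edge. Its log2 fold change was 0.23 ± 0.09 (SE; 95% interval 0.04 to 0.42; adjusted p = 0.329, edgeR). Uqcrq, a small subunit of complex III, was at 136, 161 and 186 CPM in controls and 153, 189 and 223 CPM in Txnip libraries, a log2 fold change of 0.21 (adjusted p = 0.427, edgeR). Both values are differences that did not pass the test.

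On the lower side stood Atp5l and Ndufb8. Atp5l, of the membrane part of complex V, was at 20.7, 23.3 and 27.7 CPM in controls and 15.2, 18.1 and 23.8 CPM in Txnip libraries, a log2 fold change of -0.30 (adjusted p = 0.477, edgeR). Ndufb8, an accessory subunit in the membrane arm of complex I, was at 188, 209 and 237 CPM in controls and 181, 187 and 211 CPM in Txnip libraries (-0.15, adjusted p = 0.482, edgeR). The groups overlapped for both.

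By complex the medians were close to 0 in BALB/c: -0.01 for complex I, 0.03 for complex II, -0.09 for complex III, 0.00 for complex IV and 0.00 for complex V. In complex II the 4 log2 fold changes were -0.06 for Sdha, 0.11 for Sdhb, -0.06 for Sdhc and 0.12 for Sdhd. The precision of this comparison was high. The 95% interval of 74 of the 79 members lay within 0.5 log2 units of 0 and that of all 79 within 1, with a median distance from estimate to bound of 0.193. Changes of 1 log2 unit in either direction thus lay outside the interval of every member tested in BALB/c.

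In C57BL/6J cones 0 of 81 members were called, against 2 of 12974 genes (0.0154%), and 0 members had an unadjusted p under 0.05 (97 of all genes did). The median was 0.00, with 42 of 81 above 0, and the medians by complex were 0.00, 0.12, -0.01, 0.01 and 0.00 for complexes I to V. The members with the smallest p among those above 0 were Uqcrq (0.24) and Ndufa6 (0.18), and among those below 0 Atp5s (-0.46) and Ndufc1 (-0.24), each with an adjusted p of 1.0 (edgeR). Uqcrq was at 141, 128 and 186 CPM in controls and 257, 130 and 155 CPM in Txnip libraries, and Ndufa6 at 70.2, 74.1 and 89.5 against 114, 74.5 and 77.1. The high value of each was C57BL/6J Txnip replicate 1, and without that library the log2 fold changes were -0.08 and -0.03.

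This comparison was less precise than the one in BALB/c. The 95% interval of 3 of 81 members lay within 0.5 log2 units of 0 and that of 77 within 1, with a median distance from estimate to bound of 0.608. A change of 0.5 log2 units was therefore not detectable for most members with these libraries. The median over members also moved with single libraries: it was -0.28 without C57BL/6J Txnip replicate 1, where 2 of 82 members were above 0, and 0.17 without C57BL/6J Txnip replicate 2, where 74 of 81 were. It was 0.15 with control replicate 3 left out and -0.10 with control replicate 2 left out. For BALB/c, leaving out any 1 library moved it between -0.02 and 0.02.

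**Figure D3:**
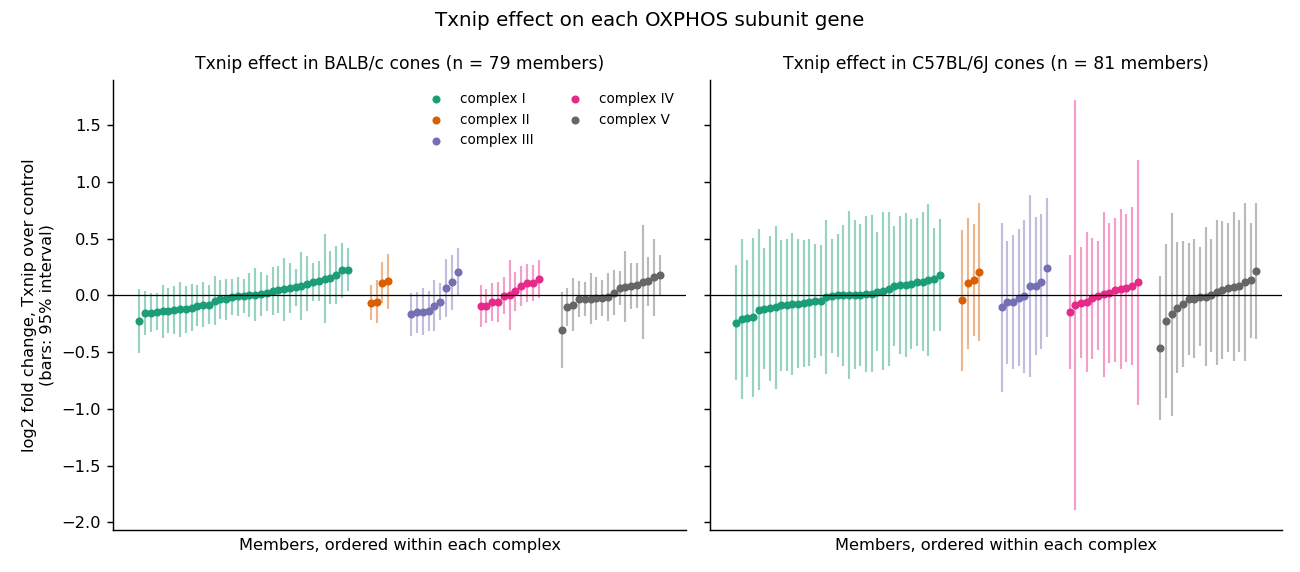
Log2 fold change of Txnip over control libraries for each member (points) with its 95% interval (bars), ordered by size within each complex, in BALB/c (79 members, 6 against 6 libraries) and C57BL/6J (81 members, 3 against 3 libraries). The points scatter around 0 in each complex, and the intervals in C57BL/6J, reaching a median of 0.608 to either side, were wider than those in BALB/c, with 0.193.

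Whether Txnip acted differently in the 2 strains was tested as an interaction in the fit of all 4 groups. Of 81 members 0 were called, as were 0 of all 14751 genes (0%), and 1 member against 706 genes had an unadjusted p under 0.05. That member was Cox6a2, described below, with an interaction of -4.12 that rests on counts near 0 (adjusted p = 0.906, edgeR). Next came Atp5s (-0.53) and Atp5l (0.44), both with an adjusted p of 1.0 (edgeR).

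The strain comparison asked how the OXPHOS genes of C57BL/6J cones at postnatal day 35 differed from those of BALB/c cones at postnatal day 21. In control libraries 7 of 81 members (8.64%) were called, against 17.5% of the 14751 genes tested. In C57BL/6J 6 members were higher, against 8.03% of all genes, and 1 was lower, against 9.52%. The members called higher included Ndufa12, Ndufc2, Ndufs1 and Ndufs7 of complex I and Atp5j2 of complex V, and the member called lower was Atp5k of complex V. The share of members called was below that of all genes.

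Among Txnip libraries 9 of 81 members (11.1%) were called, against 17.6% of genes. The 7 higher members, against 8.24% of genes, included Ndufa12, Ndufa10, Ndufs3 and Ndufs1 of complex I, Sdhc of complex II and Atp5l of complex V. The 2 lower members, against 9.38% of genes, were Cox6a2 of complex IV and Atp5s of complex V. Of these, Cox6a2 entered the fit only through BALB/c libraries, where it was higher, as described below. The control and Txnip comparisons share no library, though they share strain and age, and 3 members, Ndufa12 and Ndufs1 among them, were called in both. These make up 42.9% of the members called in controls and 33.3% of those called in Txnip libraries, and over all genes the shares were 63.5% and 63.3%. With all libraries, members of complex III were called in neither. The share called in Txnip libraries rested on C57BL/6J Txnip replicate 2: without it 24 of 81 members (29.6%) were called, against 18.7% of genes, which turned the order, and Cyc1, Uqcrc1 and Uqcrc2 of complex III were among them.

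Ndufa12 is an accessory subunit of complex I (chr10:94198720-94221443, plus strand). It was at 40.2, 46.4 and 69.1 CPM in BALB/c controls and at 82.8, 86.6 and 122 CPM in C57BL/6J controls, which did not overlap. In Txnip libraries it was at 42.7, 53.3 and 68.1 CPM in BALB/c and at 142, 62.8 and 89.3 CPM in C57BL/6J, where replicate 2 lay inside the BALB/c range. The log2 fold changes were 0.95 ± 0.21 (adjusted p = 0.0028, edgeR) and 0.89 ± 0.21 (adjusted p = 0.00543, edgeR). Without C57BL/6J Txnip replicate 1 the second was 0.52 (adjusted p = 0.109, edgeR). Over 36.2% of its transcript Ndufa12 matches Gm15920, which leaves a part of its counts uncertain.

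Other called members of complex I differed less. Ndufs1, the largest core subunit, was at 169, 208 and 241 CPM in BALB/c controls and 269, 276 and 312 CPM in C57BL/6J controls, without overlap, and its log2 fold change was 0.47 in controls and 0.47 in Txnip libraries (adjusted p = 0.0435 and 0.0428, edgeR). With 1 library left out the call of Ndufs1 was lost in 13 of 18 fits in each comparison, and without C57BL/6J Txnip replicate 1 its value in Txnip libraries was 0.20 (adjusted p = 0.427, edgeR). Ndufc2, an accessory subunit of the membrane arm, was at 55.0, 65.4 and 77.0 CPM against 110, 70.5 and 96.2 CPM (0.49, adjusted p = 0.0364, edgeR), where C57BL/6J control replicate 2 overlapped. Ndufs7, which carries the last iron-sulfur cluster before ubiquinone, was at 125, 135 and 150 CPM against 186, 154 and 206 CPM, without overlap (0.42, adjusted p = 0.0438, edgeR). In Txnip libraries the values were 0.20 for Ndufc2 and 0.33 for Ndufs7, with adjusted p of 0.438 and 0.117 (edgeR).

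Ndufa10 and Ndufs3 were called in the Txnip libraries, where they had log2 fold changes of 0.59 (adjusted p = 0.0248, edgeR) and 0.50 (adjusted p = 0.0305, edgeR). In controls their values were 0.44 and 0.28, with adjusted p of 0.0893 and 0.23 (edgeR). For Ndufa10 the C57BL/6J Txnip libraries were at 483, 221 and 338 CPM, against 206, 236 and 253 CPM in BALB/c Txnip, so replicate 2 overlapped. Without C57BL/6J Txnip replicate 1 the values were 0.27 for Ndufa10 (adjusted p = 0.316, edgeR) and 0.27 for Ndufs3 (adjusted p = 0.289, edgeR). Since 75.7% of its transcript matches Gm12251, the value of Ndufs3 is uncertain.

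In complex II the catalytic and membrane parts were each within 0.6 log2 units between strains. Sdhc was at 54.2, 61.0 and 66.5 CPM in BALB/c Txnip and 127, 63.9 and 78.7 CPM in C57BL/6J Txnip (0.56 ± 0.17, adjusted p = 0.0217, edgeR). Without C57BL/6J Txnip replicate 1 the value was 0.23 (adjusted p = 0.349, edgeR). Its value in controls was 0.30 (adjusted p = 0.24, edgeR). Sdha had values of 0.31 in controls and 0.33 in Txnip libraries, Sdhd of 0.14 and 0.15, and Sdhb of -0.06 and -0.06, none of which passed the test.

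Complex V held members that differed in opposite directions, among them the neighbouring membrane subunits e (Atp5k), f (Atp5j2) and g (Atp5l). Atp5k (chr5:108433244-108434448, minus strand) was at 69.6, 79.2 and 86.0 CPM in BALB/c controls and 49.7, 39.7 and 67.1 CPM in C57BL/6J controls, without overlap, with a log2 fold change of -0.58 ± 0.19 (adjusted p = 0.0357, edgeR). In Txnip libraries its value was -0.28 (adjusted p = 0.325, edgeR). Atp5j2 was at 96.9, 114 and 130 CPM against 138, 144 and 193 CPM in controls (0.48, adjusted p = 0.0434, edgeR) and had a value of 0.32 in Txnip libraries (adjusted p = 0.191, edgeR).

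Atp5l (chr9:44912557-44920742, minus strand) was at 15.2, 18.1 and 23.8 CPM in BALB/c Txnip and 31.5, 33.8 and 34.8 CPM in C57BL/6J Txnip, without overlap (0.80 ± 0.18, adjusted p = 0.00297, edgeR). In controls, at 20.7, 23.3 and 27.7 against 26.7, 34.7 and 29.7 CPM, the groups overlapped and the value was 0.35 (adjusted p = 0.18, edgeR). Other genes match 57.4% of the transcript of Atp5l, which leaves its values uncertain. Atp5s, a coupling factor of ATP synthase that RefSeq lists as Dmac2l (chr12:69724950-69744660, plus strand), was at 23.2, 28.8 and 33.4 CPM in BALB/c Txnip and 16.0, 12.1 and 18.7 CPM in C57BL/6J Txnip, without overlap (-0.89 ± 0.20, adjusted p = 0.00333, edgeR). In controls it was at 19.2, 29.2 and 33.6 against 23.1, 19.3 and 22.2 CPM, with overlap (-0.37, adjusted p = 0.21, edgeR). The interaction for both missed the threshold, as given above.

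Cox6a2, the heart and muscle isoform of subunit 6a (chr7:128205435-128206387, minus strand), was scarce in BALB/c cones and scarcer in C57BL/6J. It was at 1.97, 2.89 and 4.84 CPM in BALB/c controls, 1.06, 4.16 and 4.65 CPM in BALB/c Txnip, 0.721, 0 and 1.11 CPM in C57BL/6J controls and 0 in all 3 C57BL/6J Txnip libraries. The counts behind these were 46, 45, 6 and 0. Among Txnip libraries it was at least 10.9-fold lower in C57BL/6J, from 3.03 CPM pooled over BALB/c against a floor of 3 counts over the C57BL/6J group (adjusted p = 0.000615, edgeR). In controls the log2 fold change was -2.15 (adjusted p = 0.0534, edgeR), which missed the threshold. Cox6a2 passed the filter on low counts in the fit of all 4 groups only through BALB/c libraries, where it was higher. The filter thus favours a lower call in C57BL/6J, and the call is no support of its own. The ubiquitous partner Cox6a1 was at 216, 253 and 294 CPM in BALB/c controls and 186, 149 and 229 CPM in C57BL/6J controls (-0.42, adjusted p = 0.167, edgeR), so no exchange of one isoform for the other was seen.

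**Figure D4:**
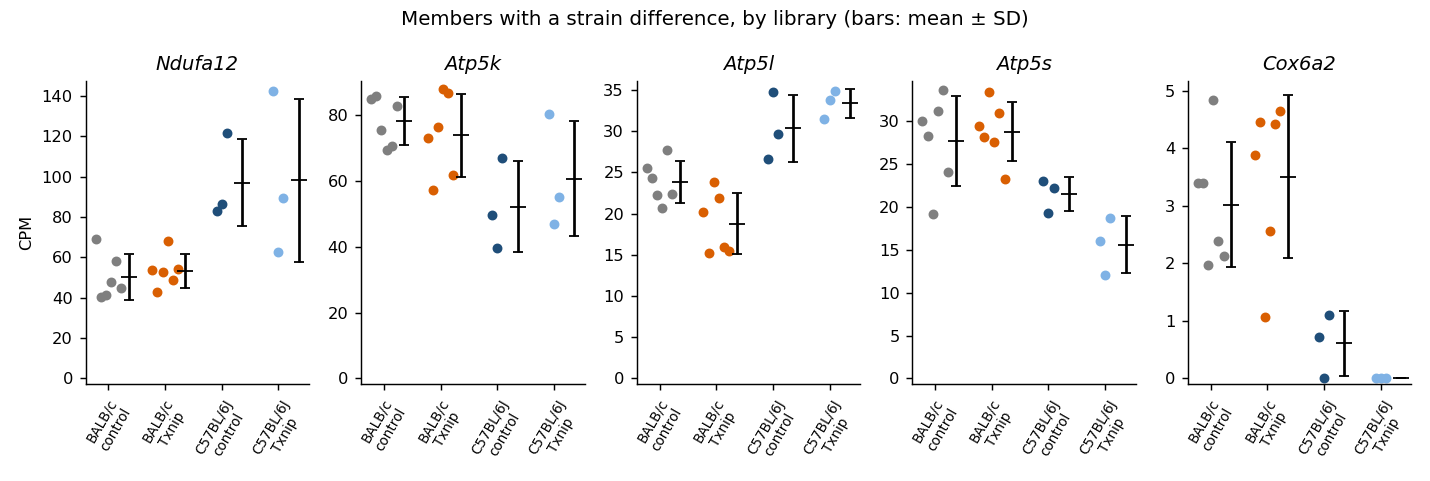
Level (CPM, linear axes from 0) of the 5 members Ndufa12, Atp5k, Atp5l, Atp5s and Cox6a2 in each of the 18 libraries (points) with the mean ± SD of each group (bars). Ndufa12 lay between 40.2 and 69.1 CPM in BALB/c controls and between 82.8 and 122 CPM in C57BL/6J controls, while at least 1 C57BL/6J Txnip library lay within the BALB/c range for this gene and for Atp5k.

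Marker lists of other cell types also differed between strains. In controls 5 of 10 rod markers were called higher and 6 of 6 ganglion and 5 of 7 amacrine cell markers lower in C57BL/6J, and in Txnip libraries 1 of 10, 5 of 6 and 5 of 7. Of 12 cone markers 4 and 6 were called higher. Muller glia markers had 2 of 6 higher and 1 lower in each comparison. The 1 marker of the retinal pigment epithelium that was tested was lower in both, and the 1 microglia marker tested was higher in controls. Over all genes 8.03% were called higher and 9.52% lower in controls, and 8.24% and 9.38% in Txnip libraries. The part of these marker differences in the values of the members was not tested.

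Beyond the members called, most values were slightly higher in C57BL/6J. In controls 68 of 81 members (84.0%) had a log2 fold change above 0, against 49.9% of all genes, with a median of 0.20 against 0.00. In Txnip libraries 65 of 81 (80.2%) did, against 54.0%, with a median of 0.18 against 0.05. The medians in controls were 0.25, 0.22, 0.16, 0.10 and 0.14 for complexes I to V, and those in Txnip libraries 0.23, 0.24, 0.20, 0.13 and 0.17, so complexes I and II came before complexes III, IV and V in controls. No test was made of these medians.

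This shift rested on single libraries. Without C57BL/6J control replicate 3 the median in controls was 0.03, with 47 of 81 members above 0. Without C57BL/6J Txnip replicate 1 the median in Txnip libraries was -0.09, with 21 of 81 above 0, and without C57BL/6J Txnip replicate 2 it was 0.36. Leaving out C57BL/6J control replicates 1 or 2 gave 0.24 and 0.25, and leaving out Txnip replicate 3 gave 0.25. Cone markers took 6.67, 4.93 and 9.60% of counts in control replicates 1 to 3 and 9.01, 3.63 and 5.85% in Txnip replicates 1 to 3. The part of the marker share in the shift was not tested.

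**Figure D5:**
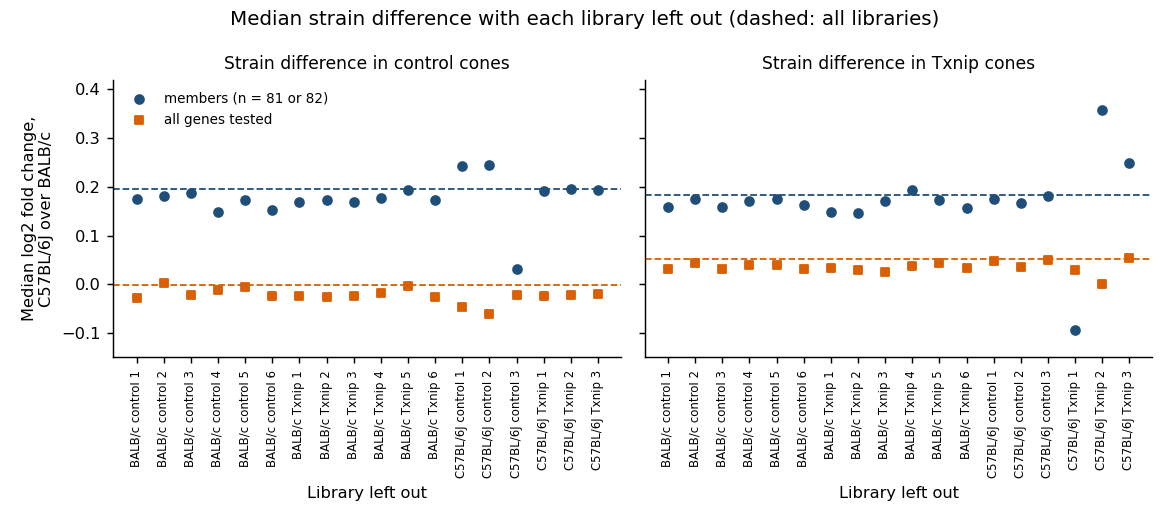
Median log2 fold change of C57BL/6J over BALB/c across members (circles, n = 81 or 82) and across all genes tested (squares), with the library named on the x axis left out, for control and for Txnip libraries. Dashed lines give the medians with all libraries, and the members' median fell to 0.03 without C57BL/6J control replicate 3 and to -0.09 without C57BL/6J Txnip replicate 1.

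The calls varied in how well they held. Over 27 alternative settings, Ndufa12 was called in controls under all 27, Atp5k under 21, Ndufc2 under 13, Ndufs1 under 11, Atp5j2 under 10 and Ndufs7 under 9. In Txnip libraries Atp5l and Atp5s were called under all 27 and Cox6a2 under all 26 that could be run for it. Ndufa12 was called under 26, Sdhc under 25, Ndufa10 under 22, Ndufs3 under 19 and Ndufs1 under 9. Cox6a2 entered these fits only through BALB/c libraries, and none of these settings addressed the copies that match Atp5l. With 1 library left out, the calls in controls were lost in 14 of 18 fits for Ndufs7 and Atp5j2, in 10 for Ndufc2 and in 3 for Atp5k. Normalization by library totals alone left 2 members called in controls and 5 in Txnip libraries. It also moved the split of calls over all genes, from 45.7% higher in C57BL/6J to 35.1% in controls and from 46.7% to 28.1% in Txnip libraries.

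Genes that build or serve the complexes were compared as lists. Under Txnip 0 genes of any of them were called in either strain. Between strains, assembly factors of complex I had 2 of 15 called higher in controls and 3 of 15 in Txnip libraries. Ndufaf2, the paralogue of Ndufa12 that stands in its place during assembly, was higher in both (log2 fold change 1.08 and 1.05), as was Ndufaf5 (0.61 and 0.79). Of 4 complex II factors, Sdhaf1, which helps place iron-sulfur clusters in Sdhb, was higher in both (0.58 and 1.15), and Sdhaf4 in Txnip libraries (0.59).

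For complex III, 3 of 6 factors were higher in controls, namely Uqcc1 (0.63), Bcs1l, the translocase of the Rieske protein (0.85), and Ttc19 (0.61), and 2 of 6 in Txnip libraries (Uqcc1 at 0.72 and Uqcc3 at 0.63). Complex IV had 1 of 19 in controls, Pet100 (1.65), and in Txnip libraries Cox10, the heme farnesyltransferase, higher (0.58) and Cox18 lower (-0.87). The 3 complex V factors tested had 0 calls in each, as did the 11 electron carriers and nucleotide exchangers tested. Of 13 regulators of mitochondrial biogenesis 0 were called in controls. In Txnip libraries the coactivator Ppargc1a (0.45) and Yy1 (0.86) were higher and Polrmt, the mitochondrial RNA polymerase, was lower (-0.59). These counts stand beside the 17.5 and 17.6% of all genes called.

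The subunits encoded in the mitochondrial genome had calls in both directions between strains and none under Txnip. The ratio of nuclear member counts to counts on the 13 mitochondrial subunit genes was 0.968 to 1.29 in BALB/c controls and 1.07 to 1.38 in BALB/c Txnip. In C57BL/6J it was 0.810, 1.40 and 1.197 in controls and 1.72, 1.44 and 1.35 in Txnip libraries. The C57BL/6J groups overlapped. Multimapping pairs were not counted, and the part of this in the mitochondrial counts, their shares and the ratio was not tested. Under Txnip the mitochondrial subunits had a median log2 fold change of 0.02 in BALB/c (7 tested) and -0.57 in C57BL/6J (8 tested, 0 of them above 0), and 0 were called in each.

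Between strains 4 of 8 mitochondrial subunits were higher in C57BL/6J controls (mt-Nd3, too low to be tested within BALB/c, mt-Nd4 at 0.81, mt-Cytb at 0.67 and mt-Co1 at 0.63) and 1 was lower (mt-Nd2 at -0.47). In Txnip libraries 1 was higher (mt-Nd3) and 3 were lower (mt-Nd1 at -0.96, mt-Nd2 at -0.94 and mt-Nd6 at -0.67). Since mt-Nd3 entered the fit through the C57BL/6J libraries, where it was higher, its calls are no support of their own. The counts of calls stand beside the same 17.5 and 17.6% of all genes. Together the 13 mitochondrial subunit genes took 2.11, 0.823 and 1.61% of counts in the C57BL/6J controls and 1.27, 0.714 and 1.0% in the C57BL/6J Txnip libraries.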

How the data were processed

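The authors sorted H2BGFP-positive cones, made libraries with a modified Smart-Seq2 protocol, and deposited for each library a table of counts, read pairs per gene on the exons of Ensembl 94, without normalization. The submitters' processing notes name STAR, featureCounts, DESeq2 and GRCm38.p6. Per the file headers, featureCounts was run without a strand option, so pairs of a gene and an overlapping antisense gene cannot be told apart, with pairs on several genes counted for each and without the option that counts multimapping pairs. The deposited comparison tables hold the authors' DESeq2 fold changes and p-values and were not used. Of columns with values of other samples there were 0.

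Groups were taken from the sample labels. Symbols came from GENCODE M21, in which 37 identifiers had no name. Tests on the counts used edgeR 4.0.16 under R 4.3.3 (filterByExpr, TMM, glmQLFit and glmQLFTest; limma 3.58.1 underneath). The Txnip effect was fitted in each strain on its own, and the strain difference and the interaction in 1 fit of all 18 libraries. A gene was called at a Benjamini-Hochberg adjusted p under 0.05 over all genes tested. CPM used TMM-normalized library sizes. Fits were tested on simulated data. Totals of 647712 to 5172156 pairs set floors of 0.58 to 4.63 CPM (3 counts). Copies were searched with blastn 2.17.0. Python used numpy 2.4.6, pandas 2.3.3, scipy 1.17.1 and matplotlib 3.10.9.

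Named genes were all of complex II, the 2 highest and 1 lowest members of each complex per kb, the isoform families, up to 3 called members per complex and direction in the strain difference of controls, the 2 highest and 2 lowest by p under Txnip in each strain, the 3 with the smallest p for the interaction, members with no count, and up to 3 called genes of each other list. One result is not reported here. Further called members, the core subunits of complexes I and III with their levels, and Cox6a1 between strains were named after their values were seen. The members and lists were chosen with earlier results of these data known. Alternatives were DESeq2 1.42.0, DESeq2 size factors, library totals, both filters on low counts, removal of mitochondrial and ribosomal RNA counts, a rod covariate, the replicate number as a block, the samples in the fit, the length used, and each library left out in turn. The principal transcript length, the complex levels over all 91 members and the removal of members with copies were chosen after seeing the data.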

Additional observations from a re-analysis of the deposited data

Results flagged for a closer look

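In groups of 6 libraries, 98 sets of values were examined for a single library far from the rest, a rule that chance alone meets in about 1 of 20 groups, and 6 were found. In BALB/c control replicate 4 the summed level of complex V, 4227 CPM, was below the other 5 libraries, and Cox7b2 was at 0.881 CPM, above the other 5 libraries. Sdhb, the iron-sulfur subunit of complex II, was at 127 CPM in BALB/c control replicate 2, above the others. In BALB/c Txnip, Atp5g2 was at 26.3 CPM in replicate 6, the shallowest library, Cox8b was at 0.213 CPM in replicate 3 where the other 5 were at 0, and Ndufa4l2 was at 1.77 CPM in replicate 5. None of these members was called in a comparison, and the values of Cox7b2, Cox8b and Ndufa4l2 rest on counts at or under the floor of 3.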

How the results depend on the processing

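Under Txnip, and for the interaction, 0 members were called under every alternative run and with each library left out. Over all genes, the 2 called in BALB/c became 77 with DESeq2, 1400 of 40933 with all genes of at least 1 count, 0 with at least 10 counts in every library and 2 to 258 with 1 library left out; the interaction had 0 to 186, the most with all genes of at least 1 count. The count of 7 members called between control strains was 2 with library totals alone, 2 with all genes of at least 1 count and 3 with the rod share as a covariate. It was 2 to 9 with 1 library left out, and fell to 4 or fewer without any 1 of the 6 BALB/c control libraries, BALB/c Txnip replicates 1, 2, 4 and 6, and C57BL/6J control replicates 1 and 3. The count of 9 in Txnip libraries was 5 with library totals alone and 24 of 81 (29.6%, against 20.3% of genes) without both libraries with the largest share of rod marker counts (C57BL/6J control replicate 1 and Txnip replicate 2), which turned the order of 11.1 against 17.6%. With 1 library left out it was 5 to 24, the extremes being without C57BL/6J Txnip replicates 1 and 2. The cause was not tested. In C57BL/6J under Txnip, leaving out 1 library gave -0.0768 to 0.405 for Uqcrq and -0.0273 to 0.278 for Ndufa6, the lowest without C57BL/6J Txnip replicate 1. The level of complexes I to V was 106, 94.3, 156, 156 and 141 CPM with no division by length, and 112, 74.5, 177, 242 and 191 CPM per kb of the principal transcript, the latter chosen after seeing the data. With all 91 members complex IV was at 65.9 CPM per kb, also chosen after seeing the data. With 66 members that have no copy, also chosen after seeing the data, the median strain difference was 0.18 in controls and 0.18 in Txnip libraries. DESeq2 moved the median of all genes between control strains to -0.35, while that of the members was 0.18.

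Same-numbered libraries did not deviate together (correlations of -0.0669 to 0.104 in BALB/c and -0.0992 to 0.0715 in C57BL/6J), so the numbers were not taken to pair samples. With the replicate block 0 members were called under Txnip in BALB/c, 0 in C57BL/6J and 0 for the interaction, and 3, 2 and 0 of all genes. Depth limits members under the floor of 0.58 to 4.63 CPM. The biological coefficient of variation was 18% in the BALB/c and 34.3% in the C57BL/6J fit, and its part in the precision was not separated from that of the number of libraries.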

Other observations

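Some tissue-restricted isoforms of complex IV that were too low to be tested had low counts in most libraries, Cox7a1 in 16 and Cox4i2 in 14 of the 18. Cox4i2, the form of subunit 4 found mainly in lung and smooth muscle, was at 8.65, 0.716 and 1.94 CPM in C57BL/6J controls and at 1.08, 4.04 and 0 CPM in C57BL/6J Txnip libraries, and at most 2.08 CPM in BALB/c. Cox7a1, the heart and muscle form of subunit 7a, was at 4.68, 1.79 and 1.94 CPM in C57BL/6J controls and at 2.44, 0.367 and 0.692 CPM in C57BL/6J Txnip libraries, and at most 3.54 CPM in BALB/c. The highest value of each was in C57BL/6J control replicate 1, the library with the largest share of rod marker counts (2.30%). Among the C57BL/6J controls it also had the largest shares of bipolar (0.0348%) and endothelial (0.00287%) marker counts. Neither gene was tested, and no group difference is drawn from these values.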
